A study of Homo sapiens with 12 samples.

Results

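The genes described are HDAC1, HDAC2, HDAC3, HDAC8, HDAC6, HDAC10 and HDAC11, which encode 7 zinc-dependent histone deacetylases. They were taken by gene symbol, a rule that itself uses no measured value, and make up 7 of the 26364 genes in the deposited count table. HDAC1, HDAC2, HDAC3 and HDAC8 form class I and HDAC6 and HDAC10 form class IIb, whereas HDAC11 is the only member of class IV. Each of the 7 passed the filter on low counts and was tested.

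Histone deacetylases remove acetyl groups from lysine residues of histones and other proteins, and HDAC1, HDAC2 and HDAC3 do so at chromatin inside corepressor complexes. Chidamide is a benzamide drug known to inhibit HDAC1, HDAC2, HDAC3 and HDAC10, so HDAC6, HDAC8 and HDAC11 are not among the enzymes it is known for. It blocks the enzymes themselves, and the data concern the RNA of their genes, not protein or enzyme activity. In B-cell lymphoma, class I enzymes serve the repressors that hold differentiation and cell-cycle inhibitor genes in check.

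Polyadenylated RNA was sequenced from cells labelled as 2 established human lines of mantle cell lymphoma, a B-cell cancer, namely JeKo-1 and Granta-519. The 4 groups, JeKo-1 with 4 µM chidamide, JeKo-1 with vehicle, Granta-519 with 4 µM chidamide and Granta-519 with vehicle, were exposed for 12 h and held 3 libraries each. The labels named no other agent or allele and did not say whether the 3 libraries of a group are separate cultures. The p-values therefore speak only of library-to-library spread, part or all of which may be technical.

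B-cell markers were present in every library. Their levels are given in CPM (counts scaled to a common library size, with TMM factors). Under the JeKo-1 label 6 of them summed to 2778 to 2816 CPM after chidamide and 2875 to 3082 CPM in vehicle. In Granta-519 the same 6 summed to 4001 to 4152 CPM after chidamide and 3312 to 3430 CPM in vehicle. SOX11, which encodes the transcription factor used to diagnose this lymphoma and is known in JeKo-1 cells, had 0 counts in all 6 libraries labelled JeKo-1, and CCND1 summed to 44 counts there after chidamide and 5 in vehicle. The 2 genes together reached 0.78 to 1.06 CPM after chidamide and 0.08 to 0.15 CPM in vehicle under the JeKo-1 label. In Granta-519 they reached 1762 to 1946 CPM after chidamide and 2218 to 2318 CPM in vehicle. The libraries labelled JeKo-1 are therefore called by their label throughout. Library totals ran from 12873642 to 16592694 counts, and vehicle replicate 2 under the JeKo-1 label differed most from its replicates (chi-square per gene of 5.39 and 4.51, against 1.62 to 3.03 for other pairs). CDKN1A, a cell-cycle inhibitor gene induced by deacetylase inhibitors, averaged 112.5 ± 3.35 CPM after chidamide and 32.9 ± 1.82 CPM in vehicle under the JeKo-1 label, and 241 ± 7.80 CPM after chidamide and 116 ± 2.48 CPM in vehicle in Granta-519 (SD, n = 3 each). Of the other 2 drug exposure markers TXNIP rose in both lines (log2 1.25 under the JeKo-1 label and 0.45 in Granta-519), and the histone gene H1F0 rose by 2.50 in Granta-519 and had 0 counts in all 6 libraries labelled JeKo-1. Of 6 myeloid markers, which B cells should lack, 2 could be tested, CSF1R, which was higher after chidamide in both lines, and LYZ, which passed as higher under the JeKo-1 label and did not pass in Granta-519. The 6 summed to 12.4 to 13.3 CPM after chidamide and 0.41 to 0.89 CPM in vehicle under the JeKo-1 label. In Granta-519 they summed to 19.5 to 21.3 CPM after chidamide and 1.07 to 1.69 CPM in vehicle. CSF1R alone averaged 8.82 CPM after chidamide and 0.176 CPM in vehicle under the JeKo-1 label, and 19.7 CPM after chidamide and 0.974 CPM in vehicle in Granta-519. CD14 averaged under 1 CPM in every group, and MPO was at 0 after chidamide in both lines. T-cell and natural killer markers summed to 5.41 to 8.09 CPM after chidamide and 2.73 to 4.35 CPM in vehicle under the JeKo-1 label, and to 1.23 to 1.98 CPM after chidamide and 0.46 to 0.57 CPM in vehicle in Granta-519. The 8 epithelial and stromal markers summed to 56.2 to 60.2 CPM after chidamide and 50.2 to 52.1 CPM in vehicle under the JeKo-1 label. In Granta-519 these 8 summed to 479 to 491 CPM after chidamide and 556 to 584 CPM in vehicle. The part of all these markers in the results was not tested. In bulk RNA, fewer cells of a kind and less RNA per cell cannot be told apart.

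The first comparison asked what 12 h of the drug did to the RNA of these genes. The clearest result was a fall of HDAC10, the class IIb polyamine deacetylase, to 0.468 times its vehicle level under the JeKo-1 label and 0.606 times in Granta-519, beside a smaller rise of HDAC2, 1.24-fold and 1.19-fold. HDAC6, the tubulin deacetylase, fell in Granta-519 alone by the test, to 0.719 times its vehicle level. HDAC1, the most abundant of the 7 on the deposited length-scaled values, did not pass in either line. Under the JeKo-1 label 4 of the 7 genes passed an adjusted p of 0.05, with HDAC2, HDAC3 and HDAC8 higher and HDAC10 lower, where 66.4% of all 15087 tested genes passed (35.3% higher and 31.1% lower). In Granta-519 3 of the 7 passed, with HDAC2 higher and HDAC6 and HDAC10 lower, where 70.9% of all tested genes passed (39.6% higher and 31.3% lower). With upper-quartile scaling, library totals alone and the length-scaled values 6 of the 7 passed under the JeKo-1 label, 5 higher and 1 lower. Of all genes 10066, 10036 and 9832 passed, and of those calls 64.9%, 63.7% and 64.3% were higher, against 53.1% in the reported fit. The CPM ranges of the 2 groups were apart in 5 members under the JeKo-1 label, HDAC1, HDAC2, HDAC3 and HDAC8 being higher, as 35.2% of all tested genes were, and HDAC10 lower, as 31.4% were. In Granta-519 they were apart in 4, with HDAC2 and HDAC11 higher, as 41.3% of all tested genes were, and HDAC6 and HDAC10 lower, as 32.5% were. Their median log2 change was 0.15 under the JeKo-1 label, beside 0.04 over all tested genes, and 0.06 in Granta-519, beside 0.08. Leaving out vehicle replicate 2 of the JeKo-1 label gave 5 called members in each line, with HDAC6 added as higher under that label (adjusted p = 0.0217 by edgeR's quasi-likelihood test), and HDAC3 (higher) and HDAC8 (lower) added in Granta-519.

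**Figure D1:**
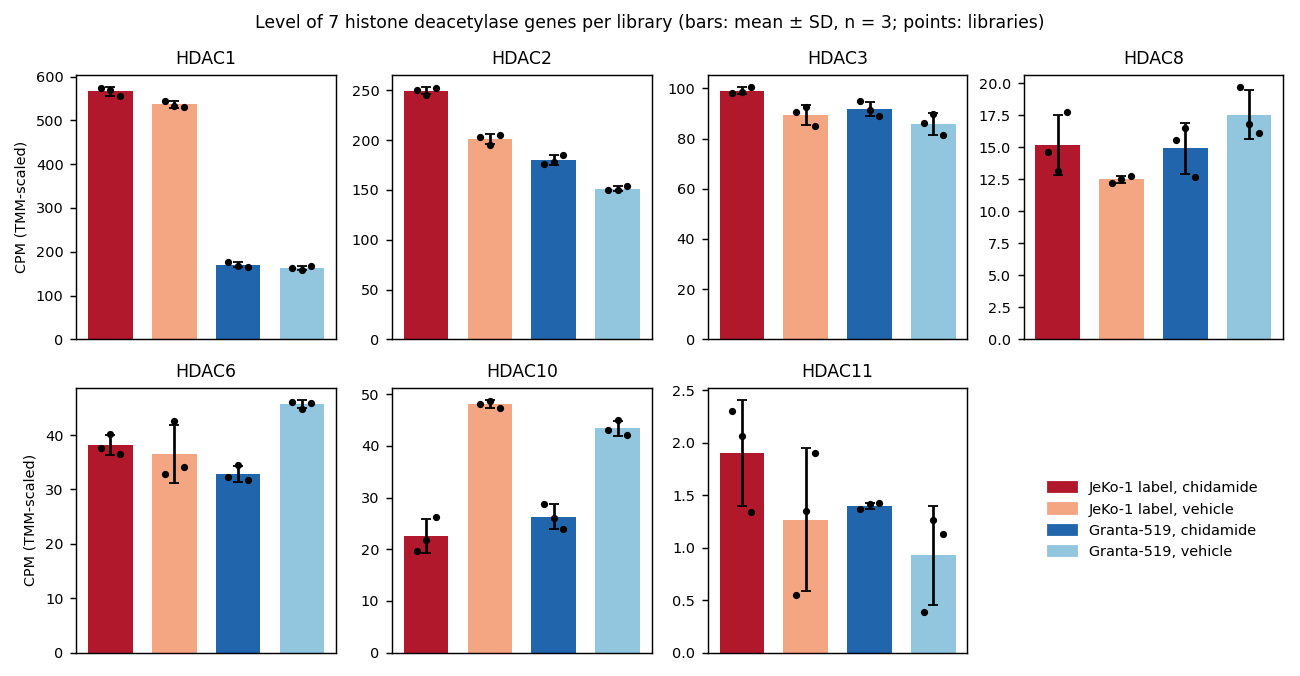
TMM-scaled CPM of each of the 7 genes by group, with chidamide left of vehicle within each line. Bars are means, error bars SD (n = 3) and points libraries. HDAC10 lay between 19.6 and 28.8 CPM in all 6 chidamide libraries and between 42.1 and 48.7 CPM in all 6 vehicle libraries, and HDAC1 differed between lines far more than between treatments.

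HDAC1 encodes a catalytic subunit of the NuRD, SIN3, CoREST and MiDAC complexes. Under the JeKo-1 label it stood at 575, 568 and 555 CPM in the chidamide libraries, against 545, 534 and 531 CPM in the vehicle libraries. The chidamide libraries lay just above the vehicle libraries, with no overlap. The log2 change was 0.08 ± 0.04 (SE), which did not pass (adjusted p = 0.0664 by edgeR's quasi-likelihood test with Benjamini-Hochberg adjustment, 95% interval 0.00 to 0.15). It did pass as higher in 14 of 22 alternative analyses, with adjusted p from 1.13e-06 to 0.163 over all of them by edgeR, DESeq2 or limma. In Granta-519 the values were 177, 168 and 166 CPM after chidamide, against 162, 158 and 168 CPM in vehicle. These ranges overlapped, and the log2 change of 0.06 ± 0.04 did not pass (edgeR adjusted p = 0.173). It passed in 3 of 22 alternatives and turned below 0 in 2, without passing. The difference between the drug effects in the 2 lines was 0.02 ± 0.06 on the log2 scale (edgeR adjusted p = 0.894, 95% interval −0.10 to 0.13).

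HDAC2, the close paralog of HDAC1 in the same complexes, gave 251, 246 and 253 CPM in chidamide libraries under the JeKo-1 label, against 203, 196 and 206 CPM in vehicle libraries. Every chidamide library was above every vehicle library. The log2 change was 0.31 ± 0.04 (edgeR adjusted p = 4.60e-09). In Granta-519 it gave 176, 178 and 185 CPM after chidamide, against 150, 150 and 154 CPM in vehicle. The groups were again apart, by 0.25 ± 0.04 on the log2 scale (edgeR adjusted p = 1.33e-06). The rise passed in all 22 alternatives in each line, and the 2 lines' effects differed by 0.06 ± 0.06 (edgeR adjusted p = 0.455, 95% interval −0.06 to 0.18). Among all tested genes this was a modest change, with 62.3% of genes lower in log2 change under the JeKo-1 label and 59.1% in Granta-519.

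The stretch before the HDAC2 start is shown because HDAC2 was the only class I gene that passed as higher in both lines. Under DESeq2 size factors, upper-quartile scaling and the DESeq2 test HDAC1 and HDAC3 passed as higher in both lines as well. It is RefSeq sequence of GRCh38.p14 at chr6:113971149-113971398, minus strand, the 250 bases before the annotated start, written 5′ to 3′. It was searched on both strands for the E-box CACGTG, the GC box GGGCGG, the CCAAT box CCAAT and the TATA box TATAAA, and held none of them, so no letter is in capitals.
HDAC2: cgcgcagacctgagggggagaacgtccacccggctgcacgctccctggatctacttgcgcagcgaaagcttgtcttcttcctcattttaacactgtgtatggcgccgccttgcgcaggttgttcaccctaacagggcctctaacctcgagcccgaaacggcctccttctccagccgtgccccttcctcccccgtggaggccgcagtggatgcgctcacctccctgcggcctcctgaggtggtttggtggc
Of 35116 RefSeq promoter windows of the same length, 6.34% held the E-box, 42.6% the GC box, 32.0% the CCAAT box and 10.7% the TATA box. None of the 7 genes had the E-box in its window.

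HDAC3, the catalytic subunit of the NCoR corepressor, had 98.1, 98.7 and 100.5 CPM after chidamide under the JeKo-1 label, against 90.8, 92.5 and 84.8 CPM in vehicle. The groups did not overlap, and vehicle replicate 3 lay lowest. A log2 change of 0.15 ± 0.05 passed (edgeR adjusted p = 0.0122), and without vehicle replicate 3 the change was 0.11 and the call was lost (edgeR adjusted p = 0.0952, against 3.41e-06 to 0.0952 over all 22 alternatives). In Granta-519 HDAC3 had 94.9, 91.4 and 89.1 CPM after chidamide, against 86.4, 89.8 and 81.4 CPM in vehicle. The ranges overlapped by 1 library on each side, and the log2 change of 0.10 ± 0.05 did not pass (edgeR adjusted p = 0.102, and 5 of 22 alternatives passed). Exons of HDAC3 overlap an annotated gene on the opposite strand, and without a stated strand setting reads of both cannot be told apart.

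HDAC8, the class I enzyme that acts alone and deacetylates the cohesin subunit SMC3, was low, at 154 to 302 counts a library. Under the JeKo-1 label it gave 14.7, 13.2 and 17.8 CPM in chidamide libraries, against 12.2, 12.5 and 12.8 CPM in vehicle libraries. All chidamide libraries were above all vehicle libraries, with replicate 3 of chidamide well above the rest. The log2 change was 0.29 ± 0.12 (edgeR adjusted p = 0.0260), and the call was lost without chidamide replicate 3 (edgeR adjusted p = 0.237), without vehicle replicate 1 and with DESeq2. In Granta-519 HDAC8 gave 15.6, 16.5 and 12.7 CPM after chidamide, against 19.7, 16.8 and 16.1 CPM in vehicle. Here chidamide libraries tended to lie lower and the ranges overlapped. The log2 change was −0.24 ± 0.11 and fell just short of the threshold (edgeR adjusted p = 0.0503). It passed as lower in 9 of 22 alternatives, and was −0.12 without chidamide replicate 3 (edgeR adjusted p = 0.394) and −0.15 without vehicle replicate 1 (edgeR adjusted p = 0.280). Exons of HDAC8 overlap an annotated gene on the same strand, whose reads counting by strand could not separate.

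HDAC6 encodes a cytoplasmic enzyme that deacetylates tubulin and cortactin and binds ubiquitin. In Granta-519 it stood at 32.3, 34.5 and 31.7 CPM after chidamide, against 46.1, 44.8 and 46.0 CPM in vehicle. The 2 groups were wide apart, with a log2 change of −0.47 ± 0.08 (edgeR adjusted p = 2.61e-07) that passed in all 22 alternatives. Under the JeKo-1 label the chidamide libraries had 37.7, 40.3 and 36.6 CPM, against 32.9, 42.6 and 34.0 CPM in the vehicle libraries. Vehicle replicate 2, the library that differed most from its replicates, was above every chidamide library and the other 2 vehicle libraries were below. The log2 change was 0.06 ± 0.08 (edgeR adjusted p = 0.487), and without vehicle replicate 2 it was 0.20 (edgeR adjusted p = 0.0217). HDAC6 was also called higher under upper-quartile scaling, with library totals alone and on the deposited length-scaled values.

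HDAC10 encodes the polyamine deacetylase of class IIb, which acts on acetylspermidine. Under the JeKo-1 label it had 19.6, 21.8 and 26.2 CPM after chidamide, against 48.2, 48.7 and 47.4 CPM in vehicle. The vehicle libraries were tightly grouped and every chidamide library was far below them. The log2 change was −1.10 ± 0.08 (edgeR adjusted p = 1.55e-17), and 2.49% of all tested genes had a lower one. In Granta-519 HDAC10 had 28.8, 26.1 and 24.0 CPM after chidamide, against 43.1, 45.0 and 42.1 CPM in vehicle. No chidamide library came near the vehicle range, and the log2 change was −0.72 ± 0.08 (edgeR adjusted p = 1.85e-11), with 7.24% of tested genes lower. Both calls were kept in all 22 alternatives, with log2 changes from −1.21 to −0.95 under the JeKo-1 label and from −0.83 to −0.62 in Granta-519. HDAC10 was the only member to pass as lower in both lines.

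The stretch before the HDAC10 start is shown because this gene had the largest called changes of the 7. It is RefSeq sequence of GRCh38.p14 at chr22:50251266-50251515, minus strand, the 250 bases before the annotated start, written 5′ to 3′, with GC boxes (GGGCGG or its reverse complement CCGCCC) and the CCAAT box in capitals.
HDAC10: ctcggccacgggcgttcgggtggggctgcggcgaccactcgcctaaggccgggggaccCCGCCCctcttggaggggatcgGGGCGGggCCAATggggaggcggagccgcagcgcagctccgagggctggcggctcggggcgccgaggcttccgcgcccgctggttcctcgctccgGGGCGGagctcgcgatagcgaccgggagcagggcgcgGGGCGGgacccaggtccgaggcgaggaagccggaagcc
It held 4 GC boxes, 1 CCAAT box, no E-box and no TATA box. At least 4 GC boxes were found in 7.63% of all 35116 windows, and 94.3% of windows had less G and C than its 78%. The HDAC11 window held 5, HDAC1 held 3, HDAC3 held 1 and HDAC2 and HDAC8 held none. HDAC6 has 3 annotated windows, with 2, 1 and 3 GC boxes.

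HDAC11, the class IV enzyme that removes fatty acyl groups from proteins, was close to the limit of detection. Its counts were 39, 29 and 21 in chidamide libraries under the JeKo-1 label, against 8, 18 and 23 in vehicle libraries. In Granta-519 they were 20, 20 and 21 after chidamide, against 6, 20 and 17 in vehicle. The ranges overlapped under the JeKo-1 label but not in Granta-519 after scaling, and vehicle replicate 1 was low in each line. The log2 changes of 0.62 ± 0.35 and 0.59 ± 0.38 did not pass (edgeR adjusted p = 0.115 under the JeKo-1 label and 0.169 in Granta-519). Leaving out 1 library gave log2 changes from 0.25 (without vehicle replicate 1) to 1.02 (without vehicle replicate 3) under the JeKo-1 label and from 0.22 (without vehicle replicate 1) to 0.88 (without vehicle replicate 2) in Granta-519. HDAC11 passed in 2 of 22 alternatives under the JeKo-1 label, without vehicle replicate 3 (edgeR adjusted p = 0.0258) and without chidamide replicate 3 (edgeR adjusted p = 0.0477), and in none in Granta-519. Changes of the size seen in HDAC2 were not detectable at this depth. Its exons overlap HDAC11-AS1 on the opposite strand, so part of these few reads may belong to that gene.

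**Figure D2:**
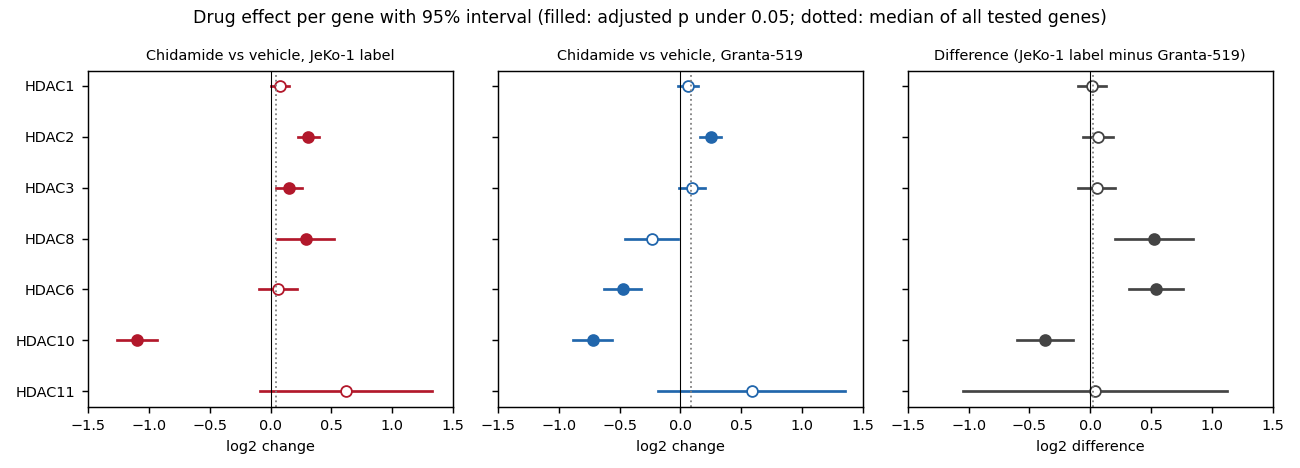
Log2 change of each gene with its 95% interval (chidamide over vehicle) under the JeKo-1 label on the left and in Granta-519 in the middle, and the difference between the lines on the right. Filled points passed an adjusted p of 0.05 by edgeR's quasi-likelihood test, and the dotted line is the median of all tested genes. HDAC10 was at −1.10 and −0.72, and HDAC8, HDAC6 and HDAC10 differed between the lines.

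The second comparison asked whether the drug effects differed between the lines. Of the 7 genes 3 passed this test, where 39.5% of all tested genes did. HDAC6 changed more positively in libraries labelled JeKo-1, by 0.54 ± 0.11 on the log2 scale (edgeR adjusted p = 5.82e-05), and passed in all 21 alternatives. HDAC8 did so too, by 0.52 ± 0.16 (edgeR adjusted p = 0.00663), a call lost without chidamide replicate 3 of the JeKo-1 label (edgeR adjusted p = 0.0560). HDAC10 fell further under the JeKo-1 label, with a difference of −0.37 ± 0.12 (edgeR adjusted p = 0.00750). That call was lost without chidamide replicate 1 of the JeKo-1 label (edgeR adjusted p = 0.0606) and in 3 other alternatives, with library totals alone, no count filter and the length-scaled values. The direction of each of the 3 held in all 21.

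Levels differed between the lines more for HDAC1 than for any other member. In vehicle HDAC1 averaged 536 ± 7.54 CPM under the JeKo-1 label and 163 ± 5.34 CPM in Granta-519 (SD, n = 3 each), a 3.30-fold difference (log2 1.72 ± 0.04, edgeR adjusted p = 3.44e-41). After chidamide it averaged 566 ± 9.82 CPM under the JeKo-1 label and 170.0 ± 5.77 CPM in Granta-519, a 3.33-fold difference. HDAC2 was higher under the JeKo-1 label too, by 0.41 in vehicle and 0.47 after chidamide on the log2 scale, and both passed in all 21 alternatives. Of the 7 genes 4 differed between the lines in vehicle, where 79.8% of all tested genes did. HDAC6 and HDAC8 were lower under the JeKo-1 label in vehicle, with log2 differences of −0.32 (edgeR adjusted p = 0.000156) and −0.49 (edgeR adjusted p = 0.000117). After chidamide 5 of the 7 differed, where 81.7% of all tested genes did. HDAC6 was then higher under the JeKo-1 label, at 38.2 ± 1.88 CPM against 32.8 ± 1.51 CPM in Granta-519 (log2 0.22, edgeR adjusted p = 0.0101), and HDAC10 was lower, at 22.5 ± 3.33 CPM against 26.3 ± 2.43 CPM (log2 −0.23, edgeR adjusted p = 0.0161). The HDAC6 and HDAC10 calls after chidamide were each lost in 3 of 21 alternatives, and a small difference in HDAC3 of 0.11 (edgeR adjusted p = 0.0483) was lost in 12.

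Between genes, levels were compared on the deposited length-scaled values. In vehicle libraries of both lines and in Granta-519 chidamide libraries the order was HDAC1, HDAC3, HDAC2, HDAC10, HDAC6, HDAC8 and HDAC11, with no overlap between neighbours over the 3 libraries of a group. After chidamide under the JeKo-1 label HDAC6 averaged 1.89 ± 0.09 and HDAC10 1.69 ± 0.26 on this scale, with overlapping ranges, so these neighbours did not differ beyond their spread. Several ranks depend on the length used. Per kilobase of coding sequence HDAC2 stood above HDAC3 in all 4 groups, and it overlapped HDAC1 in the Granta-519 chidamide libraries, with the higher mean. HDAC8 stood above HDAC6 in both Granta-519 groups on that scale, with no overlap. HDAC1 made up 71.3% ± 0.77 of the summed length-scaled level of the 7 genes after chidamide and 70.9% ± 0.53 in vehicle under the JeKo-1 label, and 46.1% ± 0.44 after chidamide and 44.3% ± 1.41 in vehicle in Granta-519 (SD, n = 3 each). Per kilobase of coding sequence its share was 58.0% after chidamide and 59.5% in vehicle under the JeKo-1 label, and 33.9% in both Granta-519 groups.

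Ratios within a library do not depend on how libraries are scaled. HDAC1 and HDAC2 can replace each other in their complexes, so the ratio of their counts was followed. Under the JeKo-1 label it was 2.27 ± 0.06 after chidamide and 2.66 ± 0.08 in vehicle, and in Granta-519 it was 0.947 ± 0.055 after chidamide and 1.08 ± 0.02 in vehicle (SD, n = 3 each). The ratio was lower in every chidamide library than in every vehicle library of its line (exact two-sided permutation test, p = 0.1 in each line, the smallest that 3 against 3 allows). The ratio of HDAC10 to HDAC6 was chosen after the values were seen and is given without a test. It was 0.593 ± 0.106 after chidamide and 1.33 ± 0.17 in vehicle under the JeKo-1 label, and 0.802 ± 0.078 after chidamide and 0.951 ± 0.047 in vehicle in Granta-519. Neither line had overlapping groups, and the gap was wider under the JeKo-1 label, where HDAC10 fell without HDAC6.

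**Figure D3:**
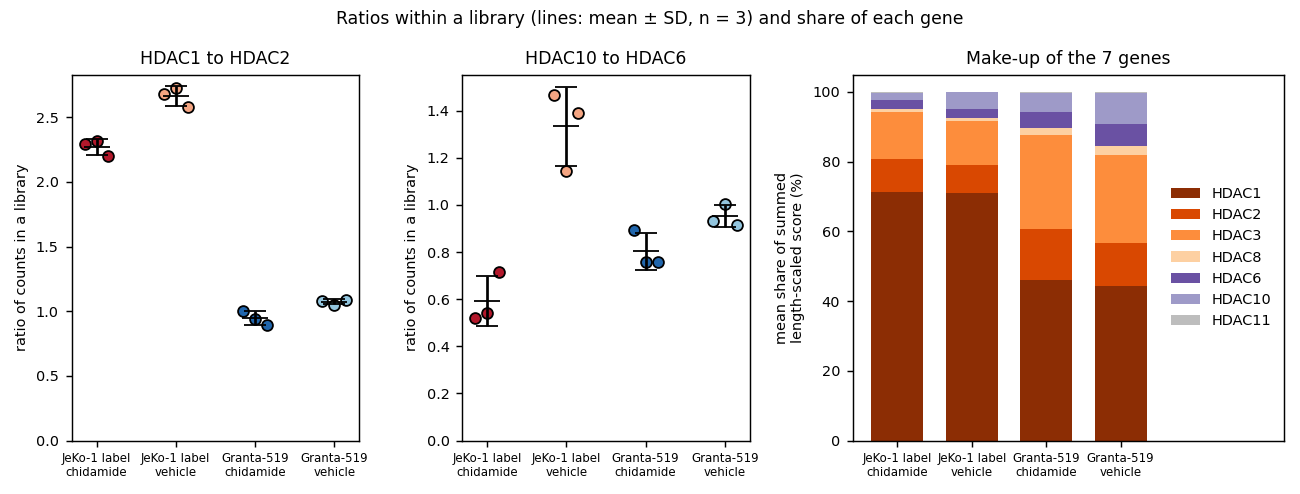
Left and middle, ratio of the counts of HDAC1 to HDAC2 and of HDAC10 to HDAC6 in each library, with means and SD (n = 3). Right, mean share of each gene in the summed length-scaled values of the 7 in percent. Both ratios were lower in chidamide than in vehicle libraries of each line, and HDAC1 held 71.3% and 70.9% of the sum under the JeKo-1 label after chidamide and in vehicle.

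Genes whose level followed a member most closely across the 12 libraries are given as a description, since the libraries share 2 lines and 2 treatments. HDAC10 was followed by ARL16 (Pearson r = 0.981), NUP214 (0.980) and ATP6V0B (0.979). HDAC2 was followed by ANXA4, PNPLA8 and NADK2 (r from 0.995 to 0.996) and HDAC1 by NLRP4, BMS1P20 and CXorf57 (r = 0.999 each). HDAC3 was followed by RPS20 (0.948), RPL27 (0.940) and LINC01004 (0.929). HDAC6 was followed by FUZ (0.924), DEF6 (0.902) and WBP1L (0.899). The closest genes to HDAC8 were SETDB1, RGL2 and IPO5P1 (r from 0.831 to 0.851), and to HDAC11 UBE2T, TMEM60 and CCDC112 (r from 0.798 to 0.810). Among the members themselves the correlations largest in size were those of HDAC2 with HDAC1 (r = 0.86) and with HDAC3 (0.75). HDAC10 ran against HDAC3 (r = −0.66), HDAC2 (−0.56) and HDAC11 (−0.56), and HDAC8 against HDAC1 (−0.52). HDAC11 ran with HDAC2 (0.54) and HDAC3 with HDAC1 (0.51).

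The nearest tested genes on the chromosome, in the order of RefSeq GRCh38.p14, moved with some members and not with others. They were taken at any distance, so a gene beside a member is the next tested one and need not be close. Beside HDAC10, the gamma-tubulin complex gene TUBGCP6 fell in both lines, with log2 changes of −0.42 under the JeKo-1 label and −0.30 in Granta-519, and the p38 kinase gene MAPK12 changed by −1.01 (edgeR adjusted p = 9.85e-22) under the JeKo-1 label and by −0.09 (edgeR adjusted p = 0.217) in Granta-519. Beside HDAC2, the noncoding RNA gene LINC01268 rose by 3.15 under the JeKo-1 label and 2.17 in Granta-519, and the kinase gene FRK by 3.48 under the JeKo-1 label and by 0.30 (edgeR adjusted p = 0.0636) in Granta-519. Both sides of HDAC1, which itself did not pass, rose in each line: the T-cell kinase gene LCK by 1.24 under the JeKo-1 label and 1.31 in Granta-519 and the actin regulator gene MARCKSL1 by 0.50 under the JeKo-1 label and 0.24 in Granta-519. SUV39H1, the histone methyltransferase gene beside HDAC6, changed by −0.81 under the JeKo-1 label and −0.72 in Granta-519. PCSK1N, on the other side of HDAC6, rose by 2.86 in Granta-519 (edgeR adjusted p = 1.93e-09), where HDAC6 fell. It had a fitted 0.00 under the JeKo-1 label, as did H1F0 with its 0 counts, so an unchanged level is not shown. HDAC6 itself did not pass under the JeKo-1 label.

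The class IIa deacetylases are relatives with weak catalytic activity. HDAC9 averaged 40.3 ± 2.17 CPM after chidamide and 6.91 ± 1.08 CPM in vehicle under the JeKo-1 label (log2 2.55 ± 0.11), and in Granta-519 it had 37 counts over the 3 chidamide libraries and 24 over the vehicle libraries. HDAC5 changed by 0.83 under the JeKo-1 label and −0.07 in Granta-519, HDAC7 by −0.49 under the JeKo-1 label and 0.78 in Granta-519 and HDAC4 by −0.18 under the JeKo-1 label and −0.35 in Granta-519, and all but the HDAC5 and HDAC9 changes in Granta-519 passed. Of the 7 sirtuins, the NAD-dependent deacetylases, 4 fell and 1 rose under the JeKo-1 label and 5 fell and 1 rose in Granta-519. Of all tested genes 31.1% fell and 35.3% rose under the JeKo-1 label, and 31.3% fell and 39.6% rose in Granta-519. SIRT5, the mitochondrial desuccinylase gene, rose by 0.94 under the JeKo-1 label and 0.46 in Granta-519, while the nucleolar SIRT7 changed by −1.03 under the JeKo-1 label and −0.75 in Granta-519 and SIRT2 by −0.82 under the JeKo-1 label and −0.73 in Granta-519. SIRT1 and SIRT6 also fell in both lines, SIRT3 passed as lower in Granta-519 (−0.48) and had −0.10 under the JeKo-1 label, and SIRT4 did not pass.

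HDAC1 and HDAC2 work inside 4 complexes, and in SIN3 more subunit genes fell than rose in both lines under each scaling tried. Of 14 SIN3 subunit genes 11 fell and 3 rose under the JeKo-1 label (median log2 −0.33) and 10 fell and 2 rose in Granta-519 (median −0.57). Beside the counts of each complex, 31.1% of all tested genes fell and 35.3% rose under the JeKo-1 label. In Granta-519 31.3% fell and 39.6% rose. BRMS1 changed by −1.41 under the JeKo-1 label and −1.35 in Granta-519, ING2 by −0.76 under the JeKo-1 label and −0.90 in Granta-519 and the scaffold gene SIN3A by −0.47 under the JeKo-1 label and −1.16 in Granta-519. Of 12 NuRD subunit genes 8 fell and 1 rose under the JeKo-1 label and 6 fell and 4 rose in Granta-519 (5 and 5 under DESeq2 size factors or upper-quartile scaling), with MTA2 (JeKo-1 label −0.77, Granta-519 −0.83) and MBD3 (JeKo-1 label −0.68, Granta-519 −0.89) lower and GATAD2B (JeKo-1 label 0.20, Granta-519 0.68) higher. Of 10 CoREST subunit genes 5 rose and 3 fell under the JeKo-1 label and 4 rose and 3 fell in Granta-519, with PHF21A (JeKo-1 label 0.62, Granta-519 0.58) higher and HMG20B (JeKo-1 label −0.96, Granta-519 −0.99) lower. RCOR2, also named there, had 8 counts over 3 chidamide libraries and 0 in vehicle under the JeKo-1 label, and rose by 1.62 in Granta-519. Of the 3 MiDAC genes DNTTIP1 changed by −0.60 under the JeKo-1 label and −1.08 in Granta-519, TRERF1 rose by 0.44 under the JeKo-1 label and 0.71 in Granta-519, and ELMSAN1 changed by −0.34 under the JeKo-1 label and 0.13 in Granta-519, each past the threshold.

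The 5 NCoR subunit genes examined, partners of HDAC3, included 3 that rose in each line. The WD-repeat genes TBL1XR1 (JeKo-1 label 0.76, Granta-519 1.30) and TBL1X (JeKo-1 label 0.69, Granta-519 1.23) rose together, as did CORO2A, which under the JeKo-1 label had 29 counts over 3 chidamide libraries and 2 in vehicle. NCOR1, the scaffold gene, had −0.05 under the JeKo-1 label and −0.31 in Granta-519, of which the one in Granta-519 passed, and GPS2 did not pass. Of 13 cohesin genes, the setting in which HDAC8 acts, 6 fell and 2 rose under the JeKo-1 label and 7 fell and 2 rose in Granta-519. Of all tested genes 31.1% fell and 35.3% rose under the JeKo-1 label, and 31.3% fell and 39.6% rose in Granta-519. The cohesin counts under the JeKo-1 label became 5 and 5 with upper-quartile scaling or library totals, and 4 fell and 5 rose on the length-scaled values. The list was led by CDCA5 (JeKo-1 label −0.83, Granta-519 −0.32), MAU2 (JeKo-1 label −0.56, Granta-519 −0.58) and STAG2 (JeKo-1 label −0.28, Granta-519 −0.42).

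Of 12 genes of HDAC6 substrates and partners 9 fell and 2 rose under the JeKo-1 label (median log2 −0.41) and 10 fell and 2 rose in Granta-519 (median −0.35). Beside this list and the polyamine list below, 31.1% of all tested genes fell and 35.3% rose under the JeKo-1 label. In Granta-519 31.3% fell and 39.6% rose. The 2 genes of the HDAC6 list that rose in each line were TUBA1A (JeKo-1 label 0.67, Granta-519 1.00), an alpha-tubulin gene, and CTTN (JeKo-1 label 1.38, Granta-519 0.70), the cortactin gene. Genes of other substrates of the enzyme fell in both lines, the alpha-tubulin genes TUBA1B (JeKo-1 label −0.18, Granta-519 −0.23), TUBA1C (JeKo-1 label −0.45, Granta-519 −0.10) and TUBA4A (JeKo-1 label −0.69, Granta-519 −0.37) and the chaperone gene HSP90AA1 (JeKo-1 label −0.43, Granta-519 −0.52). VCP changed by −0.43 under the JeKo-1 label and −0.63 in Granta-519. Of 13 polyamine genes, the pathway in which HDAC10 acts, 6 rose and 6 fell under the JeKo-1 label and 7 rose and 4 fell in Granta-519. Among those that fell in both lines were SRM (JeKo-1 label −1.33, Granta-519 −0.90) and ODC1 (JeKo-1 label −0.89, Granta-519 −0.44). SAT1, a polyamine acetyltransferase gene, averaged 122 ± 2.50 CPM after chidamide and 69.1 ± 1.92 CPM in vehicle under the JeKo-1 label. In Granta-519 SAT1 averaged 124 ± 1.19 CPM after chidamide and 40.8 ± 3.07 CPM in vehicle. SMOX, the spermine oxidase gene, had 22 counts over 3 chidamide libraries and 0 over the vehicle libraries under the JeKo-1 label, and 86 counts after chidamide and 38 in vehicle in Granta-519. AZIN2, an antizyme inhibitor gene, had 26 counts after chidamide and 1 in vehicle under that label, and 74 counts after chidamide and 43 in vehicle in Granta-519. The genes listed for HDAC11 were SHMT2 (JeKo-1 label −0.31, Granta-519 −0.09) and CDT1 (JeKo-1 label −0.83, Granta-519 −0.60), both lower, and IL10 (JeKo-1 label −0.71, Granta-519 0.95), lower under the JeKo-1 label and higher in Granta-519.

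The opposing acetyltransferase genes, 10 in all, held 6 that fell and 1 that rose under the JeKo-1 label and 6 that fell and none that rose in Granta-519. Of all tested genes 31.1% fell and 35.3% rose under the JeKo-1 label, and 31.3% fell and 39.6% rose in Granta-519. The acetyltransferase list was led by KAT5 (JeKo-1 label −0.76, Granta-519 −0.99), KAT7 (JeKo-1 label −0.58, Granta-519 −0.70) and KAT2A (JeKo-1 label −0.82, Granta-519 −0.40). Of the acetyl-lysine readers of the BET family BRD2 rose by 0.27 under the JeKo-1 label and 0.59 in Granta-519 and BRD3 changed by −0.68 under the JeKo-1 label and had 0.00 in Granta-519. The lists share the drug contrast with the 7 genes and were described by counts alone.

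**Figure D4:**
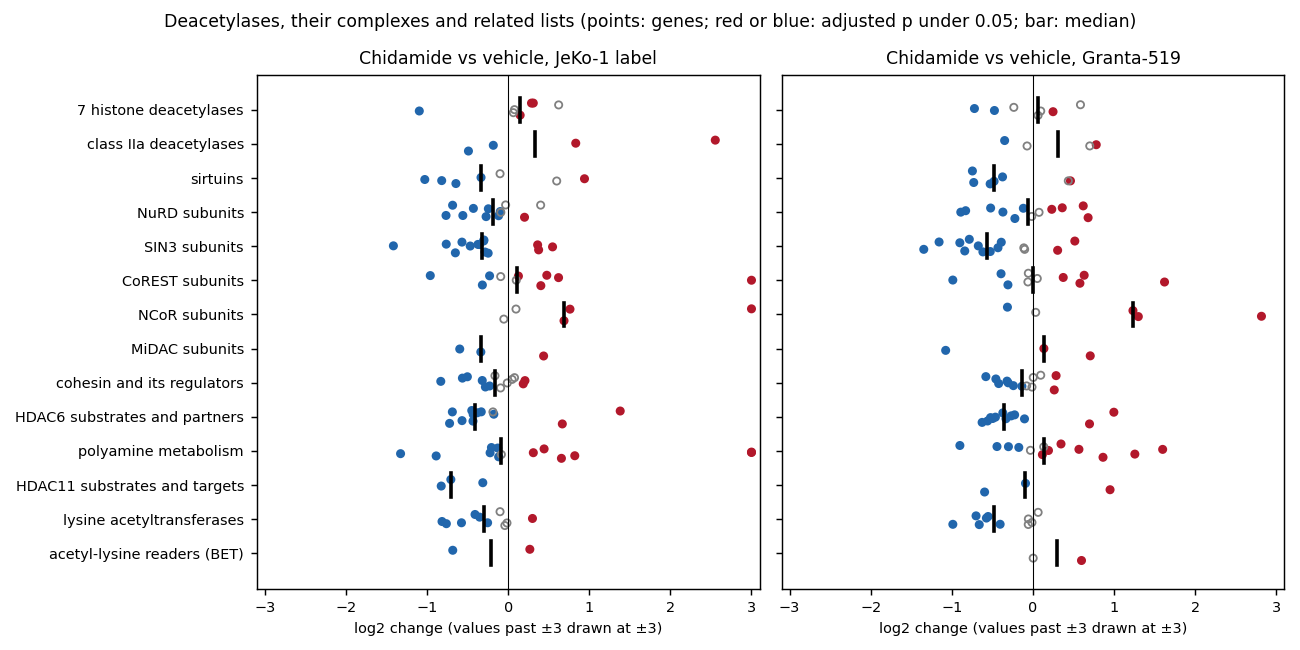
Log2 change (chidamide over vehicle) of every tested gene of each list under the JeKo-1 label on the left and in Granta-519 on the right, with red for genes that rose and blue for genes that fell (adjusted p of 0.05, edgeR), open circles for genes that did not pass and a bar at the list's median. The SIN3 medians were −0.33 under the JeKo-1 label and −0.57 in Granta-519, and the 7 histone deacetylases had medians of 0.15 under the JeKo-1 label and 0.06 in Granta-519 with HDAC10 as the lowest point.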

How the data were processed

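Polyadenylated RNA of 12 libraries was analysed from gene tables the authors deposited. Reads were aligned with STAR to hg19, per the submitters' processing notes. Not given in the sources used here were the counting tool, the annotation and the use of strand. The authors deposited whole-number counts per gene symbol. A second deposited table holds a length-scaled score, the count divided by a constant of the gene and by the library total, in columns summing to 81790 to 84121. Its constant for the 7 genes was 3.53 to 5.21 times the longest GENCODE coding transcript.

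Tests on counts used edgeR 4.0.16 under R 4.3.3 (filterByExpr, TMM, robust glmQLFit with 4 group means over 12 libraries, 8 residual degrees of freedom, glmQLFTest), with Benjamini-Hochberg adjustment over 15087 tested genes and a threshold of 0.05. SEs are back-calculated from the F statistic. The common biological coefficient of variation was 0.0422. The script was tested on simulated data. CPM used TMM-scaled totals, and intervals are 95%.

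Alternatives were other scalings, filters and tests (DESeq2 1.42.0, limma 3.58.1), fits of the compared groups alone, the score (pseudocount 0.01), a replicate block and leaving out each library.

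The 7 genes were taken by symbol alone, but they and the lists were chosen with earlier results of these data known, and 2 genes of the lists are not reported here. Genes of lists with 7 or fewer genes were named, and of longer lists the 3 called genes with the largest mean change of the lines. The 3 genes most like a member were taken among genes with a mean of at least 10 CPM. Names turned into dates (28, with 0.26% of counts) and Y-linked genes were left out of that ranking.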

Additional observations from a re-analysis of the deposited data

Results flagged for a closer look

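The 7 genes, the list genes picked by the stated naming rule and the chromosomal neighbours were searched for drug effects that differed between the 2 lines. Genes of the longer lists had been picked in these same data as called and largest in mean change. By edgeR's quasi-likelihood test of the difference (JeKo-1 label minus Granta-519, log2) 39.5% of all tested genes differed. Of the genes searched 39 did, a count that the picking keeps from being set against that share. Of the 7 deacetylases these were HDAC6 (0.54), HDAC8 (0.52) and HDAC10 (−0.37). Of other deacetylases they were HDAC9 (1.85), HDAC5 (0.91), HDAC7 (−1.27), SIRT5 (0.48), SIRT7 (−0.28) and SIRT6 (−0.27).

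In the complexes of HDAC1, HDAC2 and HDAC3 the differences were 0.69 for SIN3A, 0.48 for DNTTIP1, 0.26 for NCOR1 and 0.20 for MBD3. They were −0.27 for TRERF1, −0.47 for ELMSAN1, −0.48 for GATAD2B, −0.54 for TBL1X and −0.54 for TBL1XR1. Among genes linked to HDAC6, HDAC8, HDAC10 and HDAC11 they were 0.68 for CTTN, 0.19 for VCP, −0.33 for TUBA1A, −0.51 for CDCA5, −0.78 for SAT1, −0.22 for SHMT2, −0.23 for CDT1 and −1.66 for IL10. SMOX (4.57) and AZIN2 (3.21) had at most 1 count over the JeKo-1 label's vehicle libraries, so that these fitted values depend on the prior count. Outside the naming rule, TUBA1C (−0.34), TUBA4A (−0.32), ODC1 (−0.44) and SRM (−0.43) differed as well.

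KAT2A differed by −0.41, BRD2 by −0.32 and BRD3 by −0.69, and the markers of drug exposure CDKN1A and TXNIP by 0.72 and 0.80. Of the chromosomal neighbours MARCKSL1 differed by 0.27, LINC01268 by 0.98, FRK by 3.18, PHKA1 by −2.36, MAPK12 by −0.92 and NUP210 by −0.70.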

How the results depend on the processing

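Counts of all genes called stayed within 1.5 times the reported ones in every alternative, and of 749 alternative values of the 7 genes' changes 659 kept direction and call, 46 newly passed, 27 no longer passed and 17 changed sign. Upper-quartile scaling moved the median of all genes by 0.15 and library totals alone by 0.13 (log2) under the JeKo-1 label, and the share of calls that were higher there from 53.1% to 64.9% and 63.7% (64.3% on the length-scaled score). In that line TMM factors were 1.02 to 1.03 in chidamide libraries, against 0.928 to 0.938 in vehicle libraries.

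Of the 7 genes, 5 passed in Granta-519 under DESeq2 size factors, upper-quartile scaling and DESeq2, and 3 to 5 when a library was left out (5 without vehicle replicate 2 of the JeKo-1 label). For the difference between lines 5 passed with the length-scaled score, library totals alone and no count filter. Between the lines after chidamide 3 passed with DESeq2, and 3 to 5 when a library was left out, with 3 without chidamide replicate 1 or 2 of the JeKo-1 label or chidamide replicate 1 or 3 of Granta-519. The sign of HDAC1 in Granta-519 turned with no count filter (−0.045) and with the compared groups alone (−0.0066), and that of HDAC3 with no count filter (−0.012). HDAC3 between lines in vehicle turned with upper-quartile scaling (−0.012), library totals (−0.078), no count filter (−0.044) and the score (−0.084). None of these values passed, and the cause was not tested. Leaving out a library gave −0.0079 to 0.038 for the HDAC1 difference, −0.35 to 0.44 for HDAC11 and −0.11 to 0.11 for HDAC8 between lines after chidamide.

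For a look at pairing, each group's mean log2 CPM was subtracted per gene, and the remaining deviations of libraries were correlated. On these deviations same-numbered chidamide and vehicle libraries correlated at −0.08 to 0.23. In Granta-519 all 3 chidamide libraries correlated best with the vehicle library of their own number (0.087 to 0.23), a hint from the data and not from the design, and under the JeKo-1 label 1 of 3 did. Not every pair passed 0.1, so the numbers were taken only as names. With the replicate block 10143 genes and 5 of the 7 passed under the JeKo-1 label, 10776 genes and 4 of the 7 in Granta-519, and 3 of the 7 for the difference. The block added HDAC1 under the JeKo-1 label (edgeR adjusted p = 0.0326) and HDAC8 in Granta-519 (edgeR adjusted p = 0.0342). The block was the number within a line, so for comparisons between the lines it could not be fitted. Depth limits HDAC11 most, at 6 to 39 counts a library, and HDAC8 at 154 to 302.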
